A study of Mus musculus with 384 samples.

Results

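A set of 10 genes of the basic helix-loop-helix (bHLH) family were described in single sorted mouse dopamine (DA) neurons: the NeuroD factors *Neurod6*, *Neurod1*, and *Neurod2*, the E-proteins *Tcf12*, *Tcf3*, and *Tcf4*, the Id factors *Id2* and *Id4*, and the repressors *Bhlhe40* and *Bhlhe22*. The 10 genes, of 26750 with a read in the count table, were chosen by name. Cells were selected on their total reads and split on their *Neurod6* reads, so the *Neurod6* values given for that split are a description and carry no test. The question was which possible partners go with *Neurod6*, in single cells and within each mouse.

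The cells came from 8 C57BL6/J DAT IRES Cre;Ai9 mice aged P24–P36, 3 labelled female and 5 labelled male, with no treatment and 1 Fluidigm C1 run per mouse. Cre is expressed from the DA transporter gene (*Slc6a3*) and switches on tdTomato for good, so a sorted cell need not express the transporter at the time of the sort. The dissected midbrain included the hypothalamus, and tdTomato-positive, propidium iodide-negative cells were sorted. A cell was used from 500000 reads on genes, which left 209 of 384 cells, 12–45 per mouse, with a median of 780484 reads (range 500672–1544824). The totals closest to that limit were 500672 reads inside it and 498091 outside it. Of the 209 cells, 205 held at least 10 reads of *Slc6a3* and 198 at least 10 of *Th*, the enzyme of the first step of DA synthesis, and 181 were *Th*-rich (at least 1000 CPM, reads of a gene scaled to the cell's total). At least 2 markers of one glial or vascular list were counted in 13 cells.

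NeuroD factors are tissue-restricted activators of neuronal genes and bind DNA as dimers with a widely expressed E-protein. The dimers recognise the E-box, CANNTG. Id proteins carry the dimerisation surface but no DNA-binding region, so they hold E-proteins off DNA. *Bhlhe40* (Dec1) and *Bhlhe22* encode bHLH repressors, the first linked to the circadian clock and to hypoxia, the second to the developing cortex and retina. In the ventral midbrain, *Neurod6* marks a subset of DA neurons of the ventral tegmental area (VTA).

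The 250 bases upstream of the RefSeq start sites of 3 members, *Neurod6*, *Tcf12*, and *Id2*, are shown so that their E-boxes can be read directly. They are given on the sense strand of each gene, 5′ to 3′ (GRCm38.p6), and capitals mark each CANNTG. The *Neurod6* stretch is chr6:55681264-55681513 (minus strand), that of *Tcf12* is chr9:72111820-72112069 (minus strand, 1 of 3 starts in the table), and that of *Id2* is chr12:25096093-25096342 (minus strand).
Neurod6: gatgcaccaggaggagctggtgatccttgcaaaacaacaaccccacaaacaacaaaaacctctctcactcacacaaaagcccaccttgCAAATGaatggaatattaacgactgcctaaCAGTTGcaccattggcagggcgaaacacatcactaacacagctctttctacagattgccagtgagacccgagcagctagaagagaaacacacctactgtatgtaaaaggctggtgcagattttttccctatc
Tcf12: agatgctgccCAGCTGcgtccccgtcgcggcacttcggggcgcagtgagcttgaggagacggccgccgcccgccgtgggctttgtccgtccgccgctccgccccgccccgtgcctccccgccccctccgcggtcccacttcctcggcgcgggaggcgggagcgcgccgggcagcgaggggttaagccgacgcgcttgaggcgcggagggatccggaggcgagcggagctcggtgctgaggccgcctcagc
Id2: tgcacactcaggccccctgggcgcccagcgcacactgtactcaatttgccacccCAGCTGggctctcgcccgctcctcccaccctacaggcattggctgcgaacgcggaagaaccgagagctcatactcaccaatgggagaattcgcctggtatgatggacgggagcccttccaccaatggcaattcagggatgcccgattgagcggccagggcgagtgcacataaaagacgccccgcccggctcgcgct
The *Neurod6* stretch held 2 E-boxes and those of *Tcf12* and *Id2* held 1 each, both CAGCTG. Of the other *Tcf12* starts, 1 had a single CAAGTG and 1 had no E-box. Among 32851 promoter stretches of this length, 66.2% held at least 1 CANNTG and 31.8% at least 2, and 13.0% held CAGCTG, both of which read the same on either strand. Holding an E-box was thus common, and these matches are a description of the letters only.

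Of the 10 genes, 5 were widely detected and 5 were rare or near 0. With 10 reads as the lower limit for a positive cell, *Tcf4* was found in 142 of 209 cells (67.9%), *Tcf12* in 90 (43.1%), *Id2* in 68 (32.5%), *Neurod6* in 49 (23.4%), and *Bhlhe40* in 43 (20.6%). *Tcf3*, which encodes E12 and E47, and *Id4* were each positive in 8 cells (3.83%). *Neurod1* was positive in 2 cells, both from mouse 7, and *Neurod2* and *Bhlhe22* in none of 209 cells, with highest counts of 3 and 8 reads in a cell. A count of 0 positive cells in 209 allows a share of up to 1.75% (exact 95% binomial interval, counting error only).

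Per kilobase of exon (GENCODE M21 on GRCm38), the mean level over cells was highest for *Neurod6* at 15.7 CPM per kb, followed by *Id2* at 6.76, *Bhlhe40* at 4.49, *Tcf4* at 3.61, and *Tcf12* at 3.54 CPM per kb. *Tcf3* at 0.568, *Id4* at 0.465, *Neurod1* at 0.124, *Bhlhe22* at 0.0146, and *Neurod2* at 0.0129 CPM per kb lay below. The exon length joins the exons of all annotated transcripts of a gene, 15.5 kb for *Tcf12* and 27.4 kb for *Tcf4*. A single transcript can be shorter, so the order per length depends on this choice. On this scale the high CPM of *Tcf12* and *Tcf4* did not place them above *Neurod6*. In positive cells the median was 117 CPM for *Neurod6*, 79.9 CPM for *Tcf4*, and 77.0 CPM for *Tcf12*. *Neurod6* was thus carried by fewer cells than these 2, at a somewhat higher level in CPM, while *Tcf4* was spread over many.

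The members also differed in how far the mice stood apart. In CPM summed over the cells of a mouse, *Id2* kept a narrow range for its level, from 10.7 to 23.1 CPM over the 8 mice. *Neurod6* ranged from 0.118 CPM in mouse 4, where 1 read was counted in 12 cells, to 77.6 CPM in mouse 8. *Tcf12* ranged from 20.4 to 89.5 CPM and *Tcf4* from 40.5 to 148 CPM. *Bhlhe40* ranged from 3.59 CPM in mouse 7 to 60.0 CPM in mouse 1. *Tcf3* reached 9.64 CPM in mouse 1 and at most 2.92 CPM in any other mouse. *Id4* reached at most 4.90 CPM in any mouse, and the 8 reads of *Bhlhe22* all came from 1 cell of mouse 4.

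**Figure D1:**
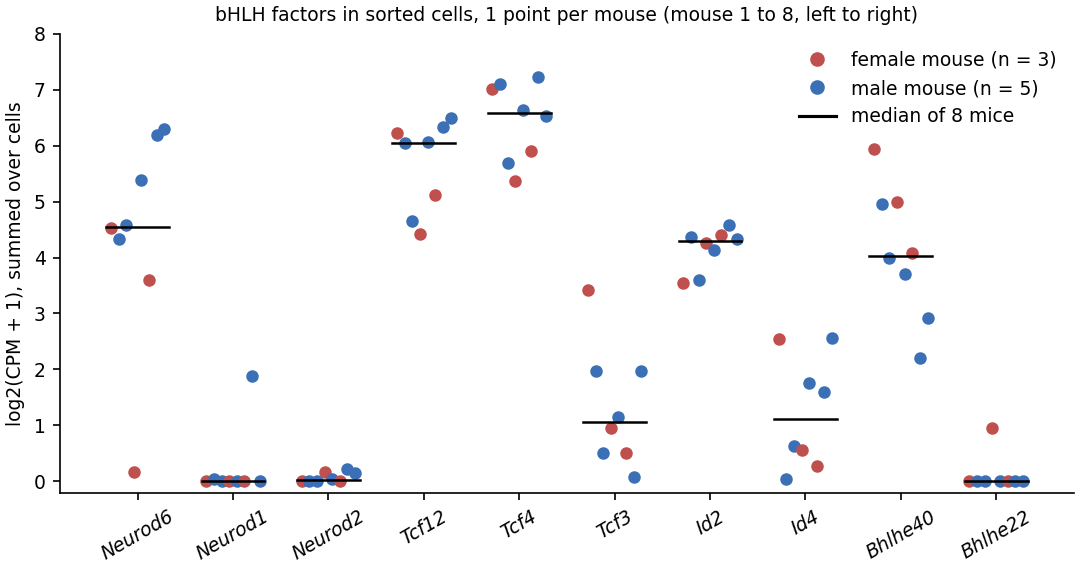
Level of the 10 bHLH genes in each of 8 mice, as log2(CPM + 1) of the reads summed over the cells used, with females in red, males in blue, and the median of 8 mice as a black line. *Tcf4*, *Tcf12*, and *Id2* were measured in every mouse, *Neurod6* in all but mouse 4 above 1 CPM, and *Neurod1*, *Neurod2*, and *Bhlhe22* lay near 0 but for *Neurod1* in mouse 7 (2.68 CPM) and *Bhlhe22* in mouse 4 (0.941 CPM).

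Males and females were compared because both sexes were sampled. *Neurod6* measured 22.9, 19.1, 40.6, 71.7, and 77.6 CPM in males 3, 2, 5, 7, and 8, and 21.9, 0.118, and 11.1 CPM in females 1, 4, and 6. The male values were on the whole higher, and the groups overlapped only through male 2 and female 1. The difference was a log2 fold change of 2.097 ± 1.01 (SE; 5 males, 3 females; edgeR quasi-likelihood adjusted p = 0.636). *Bhlhe40* lay the other way, with a mean of 13.4 ± 10.2 CPM over males against 35.5 ± 22.5 CPM over females (SD), with a log2 fold change of -1.35 ± 0.66 (edgeR adjusted p = 0.640), which ran from -1.88, without mouse 2, to -0.79, without mouse 1. None of the 7 members tested passed, beside 5 of 15529 genes (0.0322%). Among the mice of the C1 machine that ran both sexes, the log2 fold change was 2.07 for *Neurod6* and -1.05 for *Bhlhe40* (edgeR adjusted p = 1.00 for both), and the other machine ran males only. The 2 mice with the most *Neurod6*-positive cells, 41.7% in mouse 7 and 47.6% in mouse 8, were the P24 males; in the rest the share was 0–29.4%. With 1 chip per mouse, chip and mouse cannot be told apart. Age and sex overlapped only in part, with females at P25, P33, and P36 and males at P24–P28, and their separate parts were not tested.

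*Neurod6* itself split the cells cleanly. It was at 0 reads in 147 cells and at 1–5 reads in 13, and the 49 positive cells held 10–672 reads with a median of 85. The values closest to the limit were 10, 12, and 14 reads inside it and 5, 3, and 3 reads outside it. All 49 positive cells were *Th*-rich and positive for *Slc6a3*. At least 3 cells stood on each side in 6 mice (1, 2, 3, 5, 7, and 8, with 3, 10, 8, 6, 10, and 10 positive cells), and they give the comparison by mouse, 47 positive against 133 negative cells. Positive cells had a median of 810102 reads and 9231 detected genes, and negative cells 757702 reads and 9074 genes. Mice 4 and 6 had 0 and 2 positive cells and drop out, so mouse 1 is the only female in it.

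*Tcf12*, the E-protein also called HEB, was higher beside *Neurod6* in all 6 mice. The same held for *Tcf4* (below), but of the 2 only *Tcf12* passed. Summed over *Neurod6*-positive cells it measured 214, 109, 76.1, 295, 154, and 149 CPM in mice 1, 2, 3, 5, 7, and 8, and over *Neurod6*-negative cells of the same mice 42.5, 45.4, 13.5, 20.4, 24.7, and 29.9 CPM. The lowest positive value lay above the highest negative one, a separation found in this direction for 0.262% of 12605 genes and in the opposite one for 0.524%. The means were 166 ± 78.4 and 29.4 ± 12.5 CPM (SD, n = 6 mice), and the log2 fold change was 2.56 ± 0.37 (SE; edgeR adjusted p = 0.0333). Of 12606 genes tested 7 (0.0555%) passed, *Neurod6* among them, and *Tcf12* was the only one of the 5 other members tested that did. The call depended on single mice: with mouse 1, 2, 5, 7, or 8 left out the adjusted p was 0.0671, 0.0642, 0.0819, 0.153, or 0.155, and without mouse 3 it was 0.0177, with log2 fold changes of 2.22–2.84. Among *Th*-rich cells only it was 2.46 with an adjusted p of 0.0651 (edgeR). With the mouse as a block the log2 fold change was 2.53 and edgeR's adjusted p 0.0796. DESeq2, which called 126 genes (1.00%), gave *Tcf12* a log2 fold change of 2.60 with an adjusted p of 2.76e-08.

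The other genes that passed beside *Neurod6* and *Tcf12* were *Cdh13*, a cadherin, which was higher at 938 against 398 CPM, and *Rph3a*, *Fosl2*, *Kcnj2*, and an unnamed locus, which were lower. Summed over positive cells, *Fosl2* had a mean of 0.0755 and *Kcnj2* of 0.0582 CPM, against 5.43 and 8.99 CPM over negative cells, and *Rph3a* had 67.6 against 194 CPM. With the mouse as a block none of these 5 passed (edgeR adjusted p 0.144–0.292), and with 1 mouse left out *Cdh13* and *Rph3a* passed in 1 of 6 cases, without mouse 3, and the other 3 in 0.

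**Figure D2:**
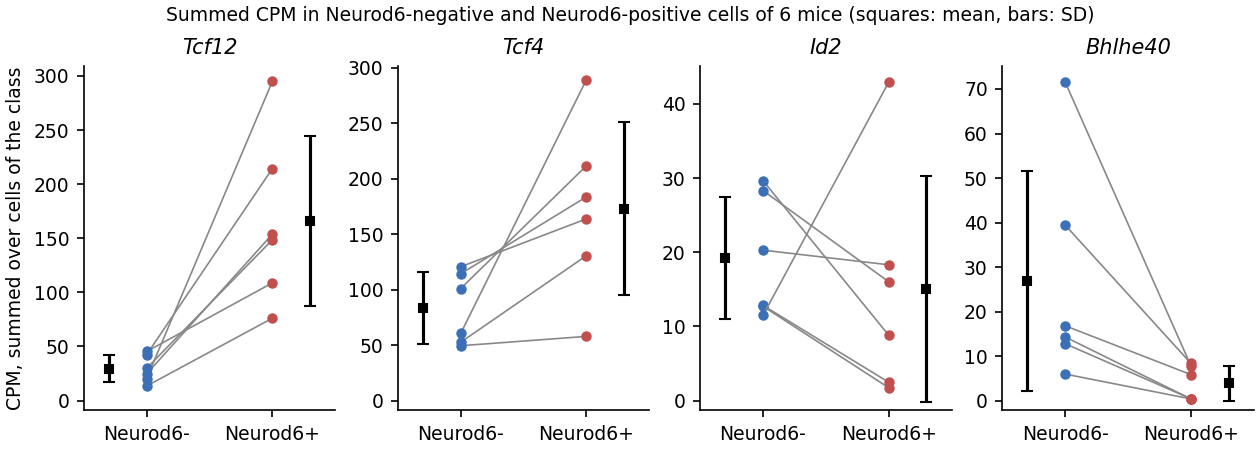
CPM of *Tcf12*, *Tcf4*, *Id2*, and *Bhlhe40* summed over *Neurod6*-negative (blue) and *Neurod6*-positive cells (red) of 6 mice, with lines joining the classes of a mouse and black squares and bars for mean ± SD. For *Tcf12* the lowest positive value, 76.1 CPM, lay above the highest negative value, 45.4 CPM; *Bhlhe40* was lower in positive cells of every mouse, and *Id2* crossed.

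*Tcf4*, the E-protein also called E2-2, was common on both sides. It measured 164, 184, 57.9, 290, 212, and 131 CPM in *Neurod6*-positive cells of mice 1, 2, 3, 5, 7, and 8, and 121, 114, 49.4, 60.6, 101, and 52.6 CPM in negative cells. It was higher on the positive side in 6 of 6 mice, but the groups overlapped through mouse 3. The log2 fold change of 1.11 ± 0.35 did not pass (edgeR adjusted p = 0.486). Among *Th*-rich cells alone it was 1.81 (edgeR adjusted p = 0.0891). *Tcf3* was at 0–6.81 CPM on the positive and 0.0931–11.8 CPM on the negative side, with a log2 fold change of -0.51 ± 1.27 (edgeR adjusted p = 0.998). Without mouse 1, whose 2 highest *Tcf3* cells were *Th*-poor, that value was 1.09.

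The Id factors showed no call. *Id2* measured 1.74, 18.3, 2.48, 42.9, 16.0, and 8.82 CPM in *Neurod6*-positive cells of mice 1, 2, 3, 5, 7, and 8, and 12.7, 20.3, 12.8, 11.5, 28.3, and 29.7 CPM in negative cells. It was lower on the positive side in 5 mice and higher in mouse 5, and its log2 fold change was -0.30 ± 0.68 (edgeR adjusted p = 0.998). With 1 mouse left out that value ran from -1.09, without mouse 5, to -0.023, without mouse 8. Among *Th*-rich cells only it turned slightly positive, as given with the processing below. *Id4* did not pass the filter on low counts. It was 13.5 CPM in positive cells of mouse 1, from 1 cell, and 0 reads in those of the other 5 mice, where negative cells held 0.0495–9.85 CPM.

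*Bhlhe40* was lower beside *Neurod6* in every mouse but did not pass. It measured 7.82, 8.37, 5.84, 0.380, 0.378, and 0.415 CPM in *Neurod6*-positive cells of mice 1, 2, 3, 5, 7, and 8, and 71.5, 39.4, 16.8, 14.3, 5.96, and 12.8 CPM in negative cells. In mice 5, 7, and 8 the positive cells together held 2, 3, and 4 reads. The log2 fold change was -2.71 ± 0.94 (edgeR adjusted p = 0.598; unadjusted p = 0.0114). *Neurod1*, *Neurod2*, and *Bhlhe22* did not pass the filter on low counts. *Neurod2* was at 0 reads in *Neurod6*-positive cells of all 6 mice and at 0–0.279 CPM in negative cells. *Neurod1* was at 3.78 CPM in positive cells of mouse 7 and at 0 reads in those of the other 5.

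The share of positive cells gives the same comparison without weight on cells with many reads. *Tcf12* was positive in 100%, 80%, 75%, 66.7%, 90%, and 90% of *Neurod6*-positive cells of mice 1, 2, 3, 5, 7, and 8, against 40%, 50%, 13.5%, 25%, 35.7%, and 45.5% of negative cells. The difference of 48.7 ± 12.2 percentage points (SD, n = 6) was positive in 6 of 6 mice (exact two-sided sign-flip permutation test, p = 0.03125, the smallest that 6 mice allow). A higher share in every mouse was found for 2.16% of 12105 genes, and a lower share in every mouse for 1.47%. The lowest *Tcf12* share in positive cells also lay above the highest in negative cells, as for 0.545% of these genes, with 0.264% the other way. *Tcf4* was higher in 5 of 6 mice, by 24.1 ± 16.3 points (exact permutation p = 0.0625). *Id2* was lower in 4 and higher in 2 mice, with a difference of -17.8 ± 21.3 points (exact permutation p = 0.125). *Bhlhe40* was lower in 5 mice and equal in mouse 1, by -17.6 ± 11.9 points (exact permutation p = 0.0625). With each cell thinned to 500000 reads, the differences were 46.3 points for *Tcf12*, 30.5 for *Tcf4*, -15.0 for *Id2*, and -11.8 for *Bhlhe40* (exact permutation p = 0.03125, 0.03125, 0.15625, and 0.0625).

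**Figure D3:**
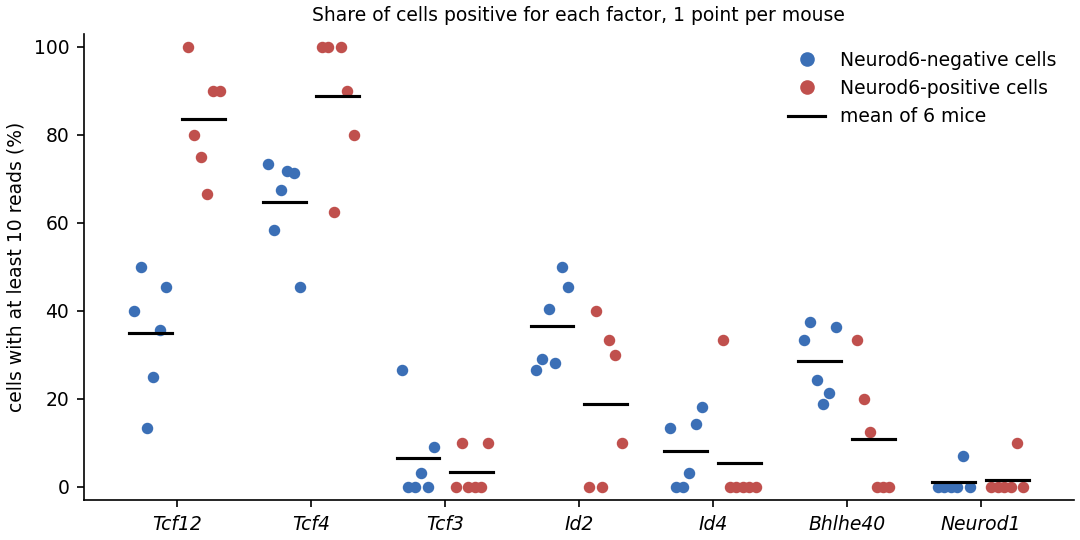
Percent of cells with at least 10 reads of each factor among *Neurod6*-negative (blue) and *Neurod6*-positive cells (red), 1 point per mouse, with the mean of 6 mice as a black line. The *Tcf12* points of positive cells (66.7–100%) lie above all those of negative cells (13.5–50%), while the other factors overlap.

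E-protein combinations were counted per cell, since a NeuroD factor needs at least 1 E-protein to bind DNA. Among the 49 *Neurod6*-positive cells, 47 were positive for at least 1 E-protein (95.9%, exact 95% binomial interval 86.0–99.5%), and none had 0 reads of all 3. Both *Tcf12* and *Tcf4* were positive in 36 of them (73.5%), *Tcf12* without *Tcf4* in 4, *Tcf4* without *Tcf12* in 7, and neither in 2. Among 160 *Neurod6*-negative cells, both were positive in 30 (18.8%), *Tcf12* alone in 20, *Tcf4* alone in 69, and neither in 41. *Tcf3* was positive in 2 of the 49 and 6 of the 160 cells, each time beside *Tcf12* or *Tcf4*. Seen from the partner, 40 of 90 *Tcf12*-positive cells (44.4%) were positive for *Neurod6*, against 43 of 142 for *Tcf4* (30.3%), 10 of 68 for *Id2* (14.7%), and 4 of 43 for *Bhlhe40* (9.30%). The other 50 *Tcf12*-positive cells were *Neurod6*-negative. These counts pool cells of 8 mice, and their intervals cover counting error only.

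**Figure D4:**
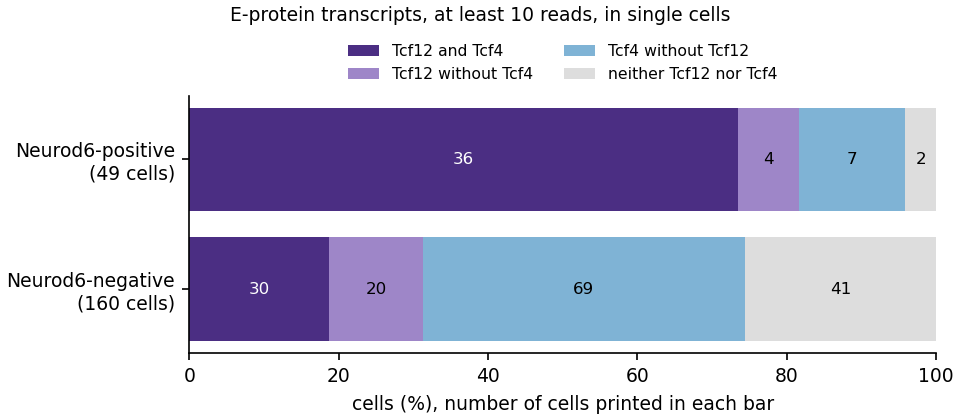
Percent of *Neurod6*-positive and *Neurod6*-negative cells with at least 10 reads of *Tcf12* and *Tcf4* together, of 1 of them, or of neither, with the number of cells printed in each bar. Both E-proteins were counted in 36 of 49 *Neurod6*-positive cells and in 30 of 160 *Neurod6*-negative cells.

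The Id factors were set against the E-proteins in the same cells. *Id2* or *Id4* was positive in 11 of 49 *Neurod6*-positive cells (22.4%), each time together with an E-protein, and 36 cells (73.5%) had an E-protein without either Id factor. Of 160 *Neurod6*-negative cells, 61 (38.1%) were positive for an Id factor, 45 of them with an E-protein and 16 without. *Id2* and *Bhlhe40* were positive together in 0 of 49 *Neurod6*-positive and 11 of 160 *Neurod6*-negative cells. Over all 209 cells the 11 stood beside 14.0 if the 2 genes were independent. Only 10 of the 49 cells were positive for *Id2* and 4 for *Bhlhe40*, so the 0 is no sign that they exclude each other.

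Rare members were looked at cell by cell. One of the 2 *Neurod1*-positive cells held 30 reads of *Neurod1*, 69 of *Neurod6*, 15 of *Tcf12*, and 187 of *Tcf4*, and was *Th*-rich. The other held 20 reads of *Neurod1*, 0 of *Neurod6* and *Tcf12*, and 83 of *Tcf4*, and was *Th*-poor with 26.0 CPM of *Th*. Of 8 *Tcf3*-positive cells, 4 came from mouse 1, and 3 of those 4 were *Th*-poor. Of 8 *Id4*-positive cells, 1 was also *Neurod6*-positive, with 75 reads. Of the 13 cells with glial or vascular markers, 2 were positive for *Tcf3* and 2 for *Id4*.

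*Grp*, a neuropeptide gene of VTA neurons, was used to ask whether *Tcf12* follows *Neurod6* or the wider *Grp* class. *Grp* was positive in 43 of the 49 *Neurod6*-positive cells. *Tcf12* was positive in 35 of 43 cells with both (81.4%, interval 66.6–91.6%), in 13 of 34 with *Grp* only (38.2%, 22.2–56.4%), and in 37 of 126 with neither (29.4%, 21.6–38.1%). *Tcf12* was also positive in 5 of the 6 cells with *Neurod6* only. Summed by mouse within *Grp*-positive cells, *Tcf12* measured 112, 59.9, 267, 154, and 149 CPM with *Neurod6* in mice 2, 3, 5, 7, and 8, and 22.7, 0, 11.9, 9.56, and 23.4 CPM without it, where mouse 3 had 0 reads in 4 cells. The groups did not overlap, which in this direction was found for 0.537% of 10985 genes. The log2 fold change of 3.45 ± 0.80 (SE, 5 mice) did not pass in edgeR (adjusted p = 0.506), where 1 of 10986 genes (0.00910%), *Neurod6*, was called. With the mouse as a block edgeR called 0 genes (4.74% had an unadjusted p under 0.05), and *Tcf12* had a log2 fold change of 3.91 (edgeR adjusted p = 0.772). DESeq2 called 30 genes (0.273%), with *Tcf12* at an adjusted p of 0.0010.

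*Bhlhe40* showed the opposite order within *Grp*-positive cells. It measured 1.22, 3.07, 0.433, 0.378, and 0.415 CPM with *Neurod6* in mice 2, 3, 5, 7, and 8, and 45.5, 36.0, 23.9, 8.25, and 10.8 CPM without it. The groups did not overlap, which in this direction was found for 0.373% of genes, and 2 of 43 cells with *Neurod6* and 8 of 34 without were positive. Outside *Grp*-positive cells, 2 of the 6 cells with *Neurod6* only were positive (33.3%, interval 4.33–77.7%) and 31 of 126 with neither (24.6%). The 6 cells are too few to give an order there, and the difference from *Grp*-positive cells was not tested. Within *Grp*-positive cells the log2 fold change of *Bhlhe40* was -4.51 ± 0.97 (edgeR adjusted p = 0.399, DESeq2 adjusted p = 8.3e-05). *Tcf4* was higher with *Neurod6* in 5 of 5 mice, by 1.55 ± 0.45 (log2, edgeR adjusted p = 1.00). *Id2* was higher in 3 and lower in 2 of 5, at a mean of 19.4 against 24.9 CPM. Its log2 fold change of -0.37 ± 0.98 was not called.

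**Figure D5:**
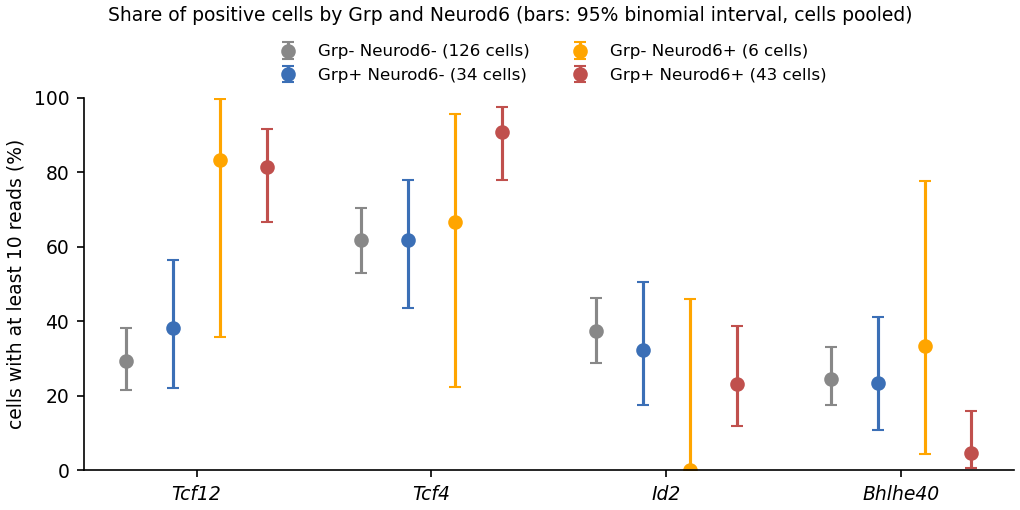
Percent of cells positive for *Tcf12*, *Tcf4*, *Id2*, and *Bhlhe40* in cells with neither *Grp* nor *Neurod6* (grey, 126 cells), *Grp* only (blue, 34), *Neurod6* only (orange, 6), and both (red, 43), cells pooled over mice, with exact 95% binomial intervals as bars. In that order *Tcf12* stands at 29.4%, 38.2%, 83.3%, and 81.4%, and *Bhlhe40* at 24.6%, 23.5%, 33.3%, and 4.65%, with wide bars for the 6 cells.

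*Otx2*, a homeobox gene of ventromedial VTA neurons, was the other VTA marker compared, in *Th*-rich cells of 6 mice. *Tcf12* measured 238, 115, 67.5, 254, 156, and 100 CPM in *Otx2*-positive cells of mice 1, 2, 3, 5, 7, and 8, and 60.9, 17.9, 17.7, 17.5, 22.4, and 88.2 CPM in *Otx2*-negative cells. It was higher in 6 of 6 mice with overlap through mouse 8, by 2.09 ± 0.48 (log2; edgeR adjusted p = 0.235; DESeq2 adjusted p = 0.0027). *Neurod6* was higher in 6 of 6 mice without overlap, as were 0.220% of 12299 genes, at 110 ± 63.3 against 17.0 ± 10.3 CPM (log2 fold change 2.70 ± 0.76, edgeR adjusted p = 0.483; DESeq2 adjusted p = 0.016). *Tcf4* was higher in 5 of 6 mice (1.18 ± 0.38, edgeR adjusted p = 0.618). *Id4* was at 0 reads in *Otx2*-positive cells of all 6 mice and at 0.0634–8.45 CPM in the *Otx2*-negative cells, and it did not pass the filter on low counts. Among the genes that passed it, 0.407% were lower in *Otx2*-positive cells without overlap. edgeR called 5 of 12300 genes (0.0407%) and 0 with the mouse as a block (848 at an unadjusted p under 0.05); DESeq2 called 97 (0.789%). In counts over all 209 cells, *Tcf12* was positive in 27 of 32 cells with *Otx2* and *Neurod6*, 13 of 17 with *Neurod6* only, 10 of 16 with *Otx2* only, and 40 of 144 with neither.

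Along *Aldh1a7*, taken as a marker of nigral-type DA neurons, no member passed, beside 14 of 12526 genes called (0.112%, 7 mice, *Th*-rich cells). *Tcf12* was 43.5 ± 38.6 CPM in positive and 65.6 ± 23.2 CPM in negative cells, a log2 fold change of -0.51 ± 0.76 (edgeR adjusted p = 0.938), which ran from -0.75, without mouse 8, to -0.30, without mouse 6. Over all 209 cells it was positive in 22 of 74 *Aldh1a7*-positive and 68 of 135 *Aldh1a7*-negative cells. *Neurod6* was nearly as frequent in both, in 18 of 74 and 31 of 135 cells. *Sox6*, an SRY-box gene of nigral DA neurons, was positive in 4 of the 49 *Neurod6*-positive cells, and *Tcf12* was positive in 15 of 76 *Sox6*-positive and 75 of 133 *Sox6*-negative cells.

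*Th*-poor cells, 28 of the 209, held no *Neurod6*-positive cell. *Id2* was positive in 17 of 28 *Th*-poor cells (60.7%) and 51 of 181 *Th*-rich cells (28.2%). Summed by mouse it was 26.0 ± 11.3 against 12.2 ± 7.59 CPM (5 mice, higher in 4), and the log2 fold change of 1.13 ± 0.79 did not pass (edgeR adjusted p = 0.736). *Tcf12*, *Tcf4*, and *Bhlhe40* had log2 fold changes of -0.70, 1.02, and 1.31 (edgeR adjusted p = 0.897, 0.797, and 0.827). The direction of *Tcf4* turned with the mouse as a block, as given with the processing below. With 1 mouse left out *Tcf12* ran from -2.72, without mouse 2, to -0.084, without mouse 1, *Tcf4* from 0.18, without mouse 2, to 1.36, and *Bhlhe40* from 0.71, without mouse 4, to 1.65, and none was called. In this comparison edgeR called 48 of 11323 genes (0.424%), and 10 with the mouse as a block. The markers of GABA neurons did not go one way for *Bhlhe40*. It was positive in 8 of 15 cells with *Gad1*, an enzyme of GABA synthesis, and 35 of 194 without, in 14 of 42 with *Gad2*, the other such enzyme, and 29 of 167 without, and in 1 of 18 with the vesicular transporter *Slc32a1* and 42 of 191 without.

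Likeness between genes was ranked over 209 cells and 12106 genes by Spearman correlation of log2(CPM + 1) after the mean of each mouse was removed. The cells share libraries, chips, and mice, so the values are a description. The 5 genes most like *Neurod6* were *Igfbp4* (0.75), *Lpl* (0.66), *Gkn1* (0.66), *Otx2* (0.63), and *Grp* (0.63). *Tcf12* ranked 41 (0.42) and *Tcf4* 66 (0.37) in that order. For *Tcf12*, the gene ranked first of 12105 was *Neurod6* (0.42), followed by *Pde1a* (0.35) and *Kcnab1* (0.35). For *Tcf4* the first were *Aldh1a1* (0.41), *Zbtb20* (0.41), and *Wscd1* (0.39), and *Neurod6* was the fifth (0.37). For *Id2* they were *Zdhhc22* (0.35), LOC102634058 (0.30), and *Rbfox1* (0.29), and for *Bhlhe40* they were *Sox4* (0.31), *Ccdc109b* (0.29), and *Ezr* (0.28). *Tcf12* and *Tcf4* correlated with each other at 0.21, and *Neurod6* correlated with *Id2* at -0.17 and with *Bhlhe40* at -0.18. The *Neurod6* level and the cell's total reads had a value of 0.04. Within the 49 *Neurod6*-positive cells, the amount of *Neurod6* and the amount of *Tcf12* had a value of 0.16, the amounts of *Neurod6* and *Tcf4* one of 0.18, those of *Neurod6* and *Bhlhe40* one of 0.17, and those of *Neurod6* and *Id2* one of -0.03. Within these cells the E-proteins thus did not stand apart from *Bhlhe40*.

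Other bHLH genes and co-regulators of E-proteins were looked at in chosen lists of 80 genes. Of these, 40 were tested between *Neurod6*-positive and *Neurod6*-negative cells. None passed in either direction. In the NeuroD and proneural list, which also holds other bHLH factors such as *Bhlhe41*, *Msc*, and *Twist2*, 5 of 25 were tested. Their median log2 fold change of 2.06, beside 0.00 for all 12606 genes, is the value of *Msc*, positive in 14 cells. It is thus no measure of proneural factors as a group. In that list *Bhlhe41*, the paralog of *Bhlhe40*, was positive in 207 of 209 cells and had a log2 fold change of -0.02 ± 0.23. *Nhlh2*, a neuronal bHLH factor, was positive in 21 of 49 *Neurod6*-positive and 19 of 160 *Neurod6*-negative cells (log2 fold change 2.04 ± 0.79, edgeR adjusted p = 0.702), *Twist2* in 6 and 7 (3.15 ± 0.98, edgeR adjusted p = 0.486), and *Msc* in 7 and 7 (2.06 ± 1.62, edgeR adjusted p = 0.975). *Olig1* was positive in 4 cells and not tested.

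Neither of the other Id genes was tested: *Id3* was positive in 3 cells, all *Neurod6*-negative, and *Id1* in none. Of the Hes and Hey repressors 2 of 9 were tested, *Hes6* (0.98 ± 0.48, edgeR adjusted p = 0.832) and *Hey1* (-1.20 ± 0.86, edgeR adjusted p = 0.956), with a median of -0.11; *Hes1* and *Hes3* were positive in 3 cells each and *Hes7* in none. Of the co-regulators of E-proteins 10 of 11 were tested, with a median of -0.02. *Runx1t1*, a corepressor that binds E-proteins, was positive in 23 of 49 *Neurod6*-positive and 111 of 160 *Neurod6*-negative cells, with a log2 fold change of -1.38 ± 0.47 (edgeR adjusted p = 0.578). *Lmo4* had -0.997 ± 0.38 (edgeR adjusted p = 0.702), and *Lmo3*, *Crebbp*, and *Cbfa2t2* lay between 0.11 and 0.22. Of the bHLH-PAS and bHLH-zipper factors 23 of 33 were tested, with a median of -0.25. Its most abundant members *Hif1a*, *Clock*, *Usf1*, *Arnt2*, and *Srebf2* had log2 fold changes between -0.32 and 0.31.

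Markers of other cells differed by list. Microglial markers summed to at most 3.26 CPM and endothelial markers to at most 10.4 CPM in either class, while the oligodendrocyte and astrocyte lists reached far more. Oligodendrocyte markers summed to 18.6–131 CPM in *Neurod6*-positive and 19.4–2591 CPM in *Neurod6*-negative cells over the 6 mice. Of the 6 microglial markers 1 had a read in *Neurod6*-positive cells, and of the 4 endothelial markers *Cldn5*, *Pecam1*, and *Flt1* had none. The remaining one, *Esam*, had a mean of 2.38 CPM and was positive in 2 of the 49 cells (up to 75 reads), against 0.88 CPM and 4 of 160 *Neurod6*-negative cells. The astrocyte list summed to 574–1021 against 195–796 CPM, but its *Slc1a2* alone gave a mean of 718.5 and 273 CPM and was positive in all 49 *Neurod6*-positive cells, while *Gfap* and *Aqp4* were at 0, *Slc1a3* at no more than 1 read, and *Gja1* at no more than 4 reads in any of them. *S100b* had 5.80 CPM, with 1 positive cell of 185 reads, against 3.20 CPM and 3 positive cells among *Neurod6*-negative cells. *Aldh1l1* had 0.537 CPM, with 1 positive cell of 17 reads, against 0.661 CPM and 3 positive cells. The part of *Slc1a2*, *S100b*, and *Esam* in these results was not tested. The 10 markers of DA neurons themselves summed to 17455–25879 CPM in *Neurod6*-positive and 8357–19248 CPM in *Neurod6*-negative cells; their part in the results was not tested. Without the 13 cells with glial or vascular markers, *Tcf12* had a log2 fold change of 2.43 (edgeR adjusted p = 0.0386) and *Bhlhe40* one of -2.30. In GENCODE M21, exons of *Bhlhe40*, *Id4*, and *Neurod1* overlap other genes on the opposite strand, and those of *Neurod1* also *Cerkl* on its own. The libraries do not mark strand, and reads on more than 1 gene were left out in counting. Reads shared by *Bhlhe40* and its antisense gene 0610040F04Rik were thus dropped if the RefSeq annotation held both genes. If it held only *Bhlhe40*, they were counted for it and cannot be told apart. Which of these applied was not checked.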

How the data were processed

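Single-cell RNA-seq counts of 384 cells were used. The counts were deposited by the authors without normalization: per the labels and the study's methods, reads were trimmed with Trimmomatic 0.3.2, aligned to GRCm38 with TopHat2 2.1.1, and counted per RefSeq gene with featureCounts 1.5.0-p3, leaving out reads on more than 1 gene. No molecular identifiers were used. All columns matched a labelled cell. Of 47082 entries, 41361 held counts, and 94 entries for spike-ins and transgenes held 0.00325% of reads and were left out.

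Cells with at least 500000 reads were used, CPM were computed over genes, and a cell was positive from 10 reads. For each mouse, reads were added up over its cells, or over the cells of each class where both classes held 3 or more. The sums went into the quasi-likelihood test of edgeR 4.0.16 (R 4.3.3; TMM scaling, filterByExpr, Benjamini-Hochberg adjustment, threshold 0.05). The SE is the log2 fold change divided by the square root of F. The mouse is the replicate. Both classes come from the same mouse, whose deviations correlated at 0.066–0.289 (*Neurod6*), 0.029–0.182 (within *Grp*), 0.031–0.169 (*Th*), 0.077–0.230 (*Otx2*), and 0.045–0.228 (*Aldh1a7*), so the mouse as a replicate block was an alternative, as was DESeq2 1.42.0. Shares were tested by exact sign-flip permutation over mice (Python 3.11.15, scipy 1.17.1). Intervals are exact binomial and cover counting error only. The tools were tested on simulated data. The alignment table, which names no cells, was not used. Doublet wells had been left out by the authors after inspection of the chips, and no doublet caller was run. The sex and age labelled for each cell were used; the series description gives other numbers of each sex, and it and the sample source a narrower age range.

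The members and lists were chosen with earlier results of these data known, so no call here is independent support. Named are all members, the 5 genes of each list with the highest mean CPM, genes past the threshold beside *Neurod6*, and the 5 or 3 most correlated genes (among genes positive in 10 or more cells). Promoters are from a RefSeq table (GRCm38.p6), which held 7 of the 10 members.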

Additional observations from a re-analysis of the deposited data

Results flagged for a closer look

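Of 40 groups of 4–10 mice examined, 2 held a mouse far from the others by Dixon's 95% limit; chance flags about 1 in 20 groups. *Neurod1* in males stood at 2.68 CPM in mouse 7, from 2 cells, and at 0.0343 CPM or less in the other 4 males. *Tcf3* in *Neurod6*-negative cells stood at 11.8 CPM in mouse 1, with the next mouse at 2.20 CPM. Of the 4 *Tcf3*-positive cells of mouse 1, 3 were *Th*-poor and 2 carried glial or vascular markers; the part of those cells in the value was not tested further.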

How the results depend on the processing

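*Tcf12* was higher beside *Neurod6* under every alternative run, but its call (log2 fold change 2.56) was lost with the mouse as a replicate block (2.53), with positive cells from 20 reads (2.45) or 50 reads (2.08), with *Th*-rich cells only (2.46), with at least 5 cells per class (2.60, without mouse 1), and with 1 mouse left out in all cases but mouse 3 (2.22–2.84). In the *Neurod6* comparison the count of genes called, 7, became 126 with DESeq2, 4 with RLE scaling, 3 with no filter on low counts, 1 with the block, 12 from 100000 reads per cell, 1 from 20 reads, 3 from 50 reads, 1 in *Th*-rich cells, 3 with at least 5 cells per class, and 1–18 without 1 mouse (3 without mouse 1, 18 without mouse 3, and 1 without each of the others). Elsewhere DESeq2 called 30 genes within *Grp*-positive cells, 190 for sex, 366 for *Th*, 97 for *Otx2*, and 141 for *Aldh1a7*. The block gave 0 (*Grp*; 4.74% of genes at an unadjusted p under 0.05), 10 (*Th*), 0 (*Otx2*; 848 genes at an unadjusted p under 0.05), and 18 (*Aldh1a7*), and beside *Tcf12* ended the call of *Neurod6* itself within *Grp*-positive cells, a description here; the block changed no other call of a member. DESeq2 called 4 values of members that edgeR did not, *Tcf12* and *Bhlhe40* within *Grp*-positive cells and *Tcf12* and *Neurod6* for *Otx2*. Without a filter 15 genes were called for *Th*, and the C1 machine that ran both sexes gave 0 for sex (edgeR; 565 at an unadjusted p under 0.05, DESeq2 not run on it). Leaving out 1 mouse gave 4–5 genes for sex, 3–72 for *Th* (29, 12, 3, and 5 without mouse 2, 4, 5, and 6), 2–9 for *Otx2* (8 without mouse 1, 9 without mouse 3 or 7, 2 without mouse 5 or 8), and 8–18 for *Aldh1a7* (9 without mouse 2, 8 without mouse 5 or 6).

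Directions turned only for members that were not called, and the cause was not tested. Beside *Neurod6*, *Tcf3* went to 1.09 with at least 5 cells per class (-0.52 to 1.09 without 1 mouse, tested in 4 of the 6 cases) and *Id2* to 0.072 in *Th*-rich cells. Within *Grp*-positive cells *Id2* went to 0.20 with the block (-1.21 to 0.38 without 1 mouse). For sex, *Tcf4* went to -0.12 from 100000 reads, *Id4* to -0.79 on the machine with both sexes, and leaving out 1 mouse gave -1.75 to 1.15 for *Tcf3*, -0.10 to 0.33 for *Id2*, and -0.54 to 2.52 for *Id4*. With the block *Tcf4* went to -0.10 for *Th*, *Id2* to -0.15 and *Bhlhe40* to 0.28 for *Aldh1a7*. Without 1 mouse *Id2* for *Aldh1a7* gave -0.56 to 0.49 and *Bhlhe40* for *Otx2* gave -1.68 to 0.040, while *Tcf12* and *Tcf4* for sex did not turn (0.32 to 1.25 and 0.21 to 1.07).

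Of the differences in share, in percentage points, *Tcf12* gave 46.4 with at least 5 cells per class and 46.1–52.4 without 1 mouse (exact permutation p = 0.0625, the smallest that 5 mice allow). *Tcf4* gave 17.5 with positive cells from 1 read, 32.6 from 20 and 46.0 from 50 reads, 30.5 after thinning, 14.9 and 43.5 with the partner counted from 1 and 50 reads, and 20.6–29.9 without 1 mouse. *Id2* gave -22.0 from 1 read, 1.52 with the partner from 50 reads, and -23.5 to -13.2 without 1 mouse. *Bhlhe40* gave -18.4 from 1 and -16.8 from 20 reads, -14.3 from 100000 reads per cell, -19.5 in *Th*-rich cells, -17.8 with the partner from 20 reads, and -21.2 to -13.9 without 1 mouse. At most 8 cells were positive for each of 5 genes, and whether depth sets this was not tested.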
